A study of Mus musculus with 9 samples.

Results

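Chemokines are small secreted proteins that direct the movement of white blood cells. The expression of 9 chemokine genes, Cxcl1, Cxcl2, Cxcl9, Cxcl10, Cxcl12, Cxcl13, Cxcl14, Cxcl16 and Ccl2, was examined in mouse liver, out of 20409 genes with a named RefSeq mRNA row in the count files. The 9 genes were a listed set, and for each gene the RefSeq row with the highest total count over all libraries was used. All 9 genes had counts above 0 in all 9 libraries.

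The livers came from male C57BL/6J mice, and each condition was 1 polyA+ library made from pooled livers. The number of animals in a pool is not given in the labels. Mice of the feeding experiment were held in LD, a cycle of 12 h light and 12 h dark. They were fed ad libitum, kept without food for 16 h between ZT9 and ZT1 (zeitgeber time, counted from lights on), or given food again for 20 h after such a fast. No harvest time of the ad libitum and refed mice is given in the labels. If refeeding began when the fast ended at ZT1, the refed livers were taken 20 h later, at another time of day than ZT1. Feeding and time of day therefore cannot be told apart. The other 6 libraries came from mice held for 1 week in LD (alternating light and dark) and for 6 weeks in DD (constant darkness), and were collected at 6 circadian times (CT), every 4 h from CT1 to CT21. With 1 library per condition, differences between conditions could not be checked against replicates. Intervals given below are exact 95% intervals that cover counting error only.

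A chemokine binds a G protein-coupled receptor on the cell it attracts, and the CXC and CC families are named after the spacing of conserved cysteines. Cxcl1 and Cxcl2 bind Cxcr2 and draw neutrophils, Ccl2 binds Ccr2 and draws monocytes, and Cxcl9 and Cxcl10 bind Cxcr3 on activated T and NK cells. Cxcl13 binds Cxcr5 and guides B cells, Cxcl12 binds Cxcr4 and is produced by stromal and endothelial cells at rest, and Cxcl16 is a membrane-anchored ligand of Cxcr6. Cxcl14 is expressed in many epithelia. In liver, hepatocytes, Kupffer cells, stellate cells and sinusoidal endothelium can all make chemokines, and inflammatory signals through NF-κB and STAT3, and interferons, are known to induce several of them.

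Upstream sequence was available for 7 of the 9 genes in the RefSeq promoter table (GRCm38.p6), all but Cxcl16 and Ccl2. The 250 bases before each transcription start were searched on both strands for the NF-κB consensus, for the interferon-stimulated response element core GAAANNGAAA, for the STAT site TTCNNNGAA, for the E-box CACGTG, the element bound by the clock proteins CLOCK and BMAL1, and for the TATA box TATAAA. The NF-κB consensus was present before Cxcl1, Cxcl2 and Cxcl10, and in 7.25% of 32851 promoter windows of the same length. The interferon element core was present before Cxcl10 and Cxcl14 (2.98% of windows), the STAT site before Cxcl14 (7.02% of windows), the TATA box before Cxcl9 and Cxcl13 (12.4% of windows), and the E-box in 0 of the 7 windows (6.02% of windows). A match is a description of letters and not a shown binding site. The stretches that hold the NF-κB, interferon element and STAT matches are given 5′ to 3′ in the direction of transcription, with these matches in capitals.

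Cxcl1 and Cxcl2, neighbours on chromosome 5 that bind the same receptor, are shown because they carry the same 11-base run, GGGAATTTCCC, in which matches to the NF-κB consensus on both strands overlap. The run begins 71 bases before the RefSeq promoter start of Cxcl1 and 97 bases before that of Cxcl2. The searched windows end at 90891244 and 90903898, past the first bases of the GENCODE transcripts given below (90891241 and 90903873). The distances, and their difference between the 2 genes, therefore depend on the start used. The windows are chr5:90891115-90891214 on the plus strand and chr5:90903769-90903868 on the plus strand.
Cxcl1: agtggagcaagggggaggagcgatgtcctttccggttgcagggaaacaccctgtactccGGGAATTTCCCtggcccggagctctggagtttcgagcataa
Cxcl2: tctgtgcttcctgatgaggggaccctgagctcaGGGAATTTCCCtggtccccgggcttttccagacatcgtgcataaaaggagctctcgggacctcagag

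Cxcl10 is shown because it was the member with both the NF-κB consensus and the interferon element core, and Cxcl14 because it had the STAT site and the interferon element core without the NF-κB consensus. The NF-κB matches before Cxcl10 begin 159, 104 and 103 bases before the start, the last of these overlapping on both strands, and the interferon element core begins 213 bases before it. Before Cxcl14 the STAT site begins at 191 bases and the interferon element core at 172 bases. The windows are chr5:92348970-92349119 on the minus strand and chr13:56296701-56296751 on the minus strand.
Cxcl10: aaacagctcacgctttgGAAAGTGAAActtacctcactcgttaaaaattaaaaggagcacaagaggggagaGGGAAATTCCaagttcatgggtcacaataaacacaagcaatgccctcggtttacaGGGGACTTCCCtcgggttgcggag
Cxcl14: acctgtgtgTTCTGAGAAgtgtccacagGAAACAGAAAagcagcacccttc

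Library totals ranged from 43485652 to 59624294 counts. Before the members are described, 3 libraries have to be set apart. The list of 20 acute phase genes holds mostly genes of secreted liver proteins made during inflammation. Its summed level was 278400 CPM (read counts scaled to a common library size by TMM) in the ad libitum library, 145100 in CT1 and 158400 in CT17. In the other 6 it lay between 18140 and 46220 CPM. The summed level of 9 measured neutrophil markers was 58.9, 23.2 and 39.2 CPM in the same 3 libraries and lay between 1.67 and 5.99 CPM in the others. Retnlg was at 0 counts in the refed library, Ngp, Mmp8 and Mpo at CT9, and Mpo at CT21. Ly6g was not analysed here. Hepatocyte markers were abundant in all 9 libraries, and their sums were lowest in the same 3. They summed to 43470 CPM in the ad libitum library, 53540 at CT1 and 67350 at CT17, and to 69340 to 93480 CPM in the others. The sum was mostly Alb (32490 CPM in the ad libitum library), and the 5 markers did not all move together. Serpina1a was highest of the 9 libraries at CT17 (3625 CPM). In pooled tissue, fewer cells of a type and less RNA of its marker genes per cell cannot be told apart.

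The levels of the members spanned a wide range. On the scale of CPM per kilobase of transcript, which allows levels of different genes to be compared, the median over 9 libraries was 36.2 for Cxcl12, 7.57 for Cxcl1, 3.45 for Cxcl16, 2.42 for Cxcl9, 1.51 for Cxcl10, 1.11 for Cxcl14, 1.03 for Cxcl13, 0.701 for Ccl2 and 0.083 for Cxcl2. The members also differed in how far they moved. The highest library was 287-fold above the lowest for Cxcl1, 31.9-fold for Cxcl2, 23.0-fold for Cxcl14, 17.4-fold for Cxcl13 and 14.5-fold for Ccl2, but 1.92-fold for Cxcl12 and 1.90-fold for Cxcl16. Cxcl9 and Cxcl10 lay between these, at 7.66-fold and 4.86-fold. Cxcl12 was thus both the most abundant member and one of the least variable ones, while Cxcl1 was the most variable.

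**Figure D1:**
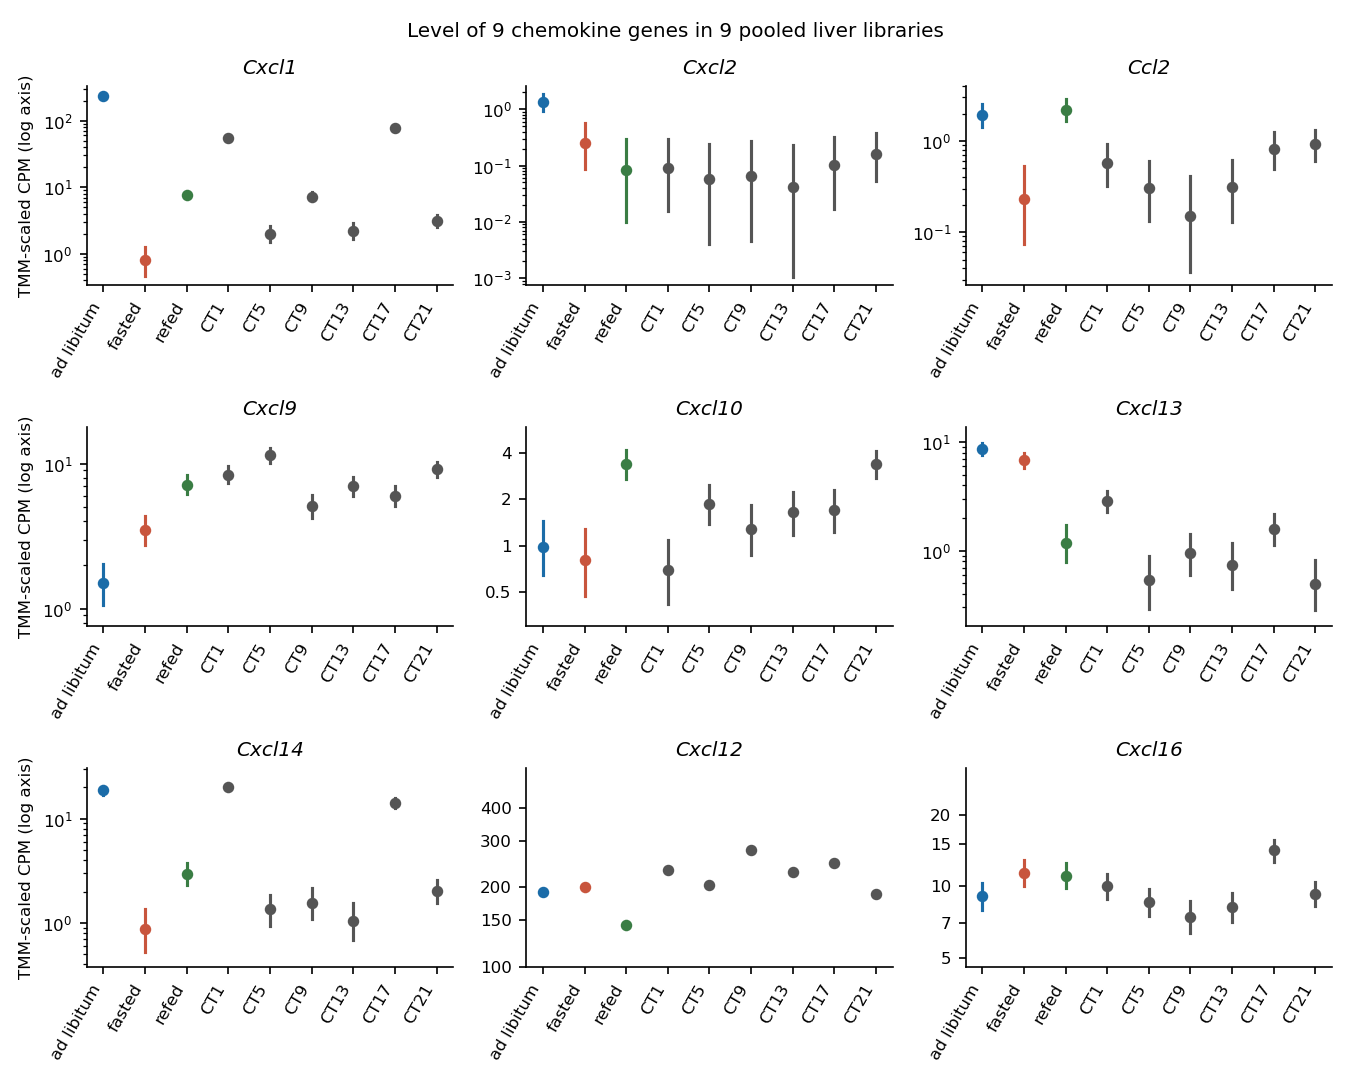
Level of each chemokine gene (TMM-scaled CPM, log axis, a separate scale per gene) in the ad libitum, fasted and refed libraries and the 6 DD libraries. Points are single libraries and bars are exact 95% counting intervals from halved counts. Cxcl1 and Cxcl14 stand high in the ad libitum, CT1 and CT17 libraries, Cxcl9 is lowest in the ad libitum library, and Cxcl12 spans 144 to 276 CPM.

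Among the neutrophil-attracting ligands, Cxcl1 (RefSeq NM_008176, chromosome 5, 90891241 to 90893115, plus strand, 4 exons) had 11902 counts with ad libitum feeding, 35 after fasting and 366 after refeeding. The DD libraries CT1, CT17 and CT9 held 2982, 3850 and 334 counts, and CT5, CT13 and CT21 held 105, 108 and 196. The ad libitum, CT17 and CT1 libraries were therefore high, in that order and with intervals that did not overlap, and the fasted library was the lowest. The scaled levels were 231, 77.7 and 54.8 CPM in the 3 high libraries and 0.803 CPM after fasting, and the refed (7.62 CPM) and CT9 (7.21 CPM) libraries had overlapping intervals. The log2 ratio of fasted to ad libitum was -8.17 (interval -8.69 to -7.69), that of refed to ad libitum -4.92 (-5.07 to -4.77) and that of refed to fasted 3.25 (2.74 to 3.79). After 20 h of food Cxcl1 was thus above the fasted library and far below the ad libitum library. The refed level lay within the range of the 6 DD libraries, and the ad libitum level lay above all 6.

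Cxcl2 (RefSeq NM_009140, chromosome 5, 90903873 to 90905938, plus strand), the neighbour of Cxcl1, was close to the limit of detection. It had 68 counts with ad libitum feeding, 11 after fasting and 4 after refeeding, and 5, 3, 3, 2, 5 and 10 counts from CT1 to CT21. The ad libitum library stood above all others, which had intervals that overlapped with their neighbours in the order of levels. The log2 ratio to ad libitum was -2.38 after fasting (-3.45 to -1.45) and -3.98 after refeeding (-5.90 to -2.56). The difference between refed and fasted, -1.60, was not detectable at this depth, since its interval ran from -3.71 to 0.16. Cxcl2 did not stand out at CT1 and CT17, where Cxcl1 was high. The other measured ligands of this group, Cxcl3, Cxcl5, Ppbp and Cxcl15, reached at most 51 counts in any library. Cxcr2, the receptor of these ligands on neutrophils and itself one of the neutrophil markers, was at 1.72 CPM in the ad libitum library, 0.689 after fasting and 0.416 after refeeding.

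Ccl2 (RefSeq NM_011333, chromosome 11, 82035571 to 82037453, plus strand, 3 exons) showed a different pattern across feeding. Its counts were 99 with ad libitum feeding, 10 after fasting and 105 after refeeding. The ad libitum and refed libraries were the highest of the 9 with overlapping intervals (1.92 and 2.19 CPM), and the fasted library (0.230 CPM) was lower. The log2 ratio was -3.06 after fasting (-4.17 to -2.12), 0.19 in the refed against the ad libitum library (-0.22 to 0.60) and 3.25 in the refed against the fasted library (2.32 to 4.35). Unlike Cxcl1, Ccl2 in the refed library differed from ad libitum by less than the counting error. In DD it had 31, 16, 7, 15, 40 and 57 counts from CT1 to CT21, highest at CT21 and lowest at CT9. Ccr2, the receptor of Ccl2 on monocytes, had nearly the same level in the 3 feeding libraries, with log2 ratios to ad libitum of 0.00 and -0.01. It was 1 of 4 monocyte markers, of which 2 were at least 2-fold lower both after fasting and after refeeding (9.47% and 7.82% of all genes). These were Chil3, at -2.7 and -1.7, and Fn1, at -2.7 and -2.2, and Ly6c2 stayed within 2-fold. In the ad libitum library Fn1 was at 5103 CPM, against 3.29 CPM for Chil3, 4.03 for Ccr2 and 0.794 for Ly6c2. At that level Fn1 cannot be read as a measure of monocytes.

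Both interferon-inducible ligands were higher in the refed than in the ad libitum library. Cxcl9 (RefSeq NM_008599, chromosome 5, 92321347 to 92328079, minus strand) had 77 counts with ad libitum feeding, 151 after fasting and 344 after refeeding, and 458, 602, 235, 338, 297 and 569 counts from CT1 to CT21. The ad libitum library was the lowest of all 9, the fasted library the next, and the refed library lay within the range of DD. The log2 ratio was 1.22 after fasting (0.81 to 1.63), 2.26 in the refed against the ad libitum library (1.90 to 2.64) and 1.05 in the refed against the fasted library (0.77 to 1.33).

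Cxcl10 (RefSeq NM_021274, chromosome 5, 92346638 to 92348882, minus strand) had 51 counts in the ad libitum, 35 in the fasted and 163 in the refed library. The DD libraries had 38, 99, 60, 80, 84 and 211 counts from CT1 to CT21. The refed and CT21 libraries were the highest (3.39 CPM in each), and the ad libitum, fasted and CT1 libraries were the lowest, with overlapping intervals. The ratio of fasted to ad libitum, -0.30 on the log2 scale, had an interval that included 0 (-0.96 to 0.35), whereas refed against ad libitum was 1.78 (1.32 to 2.26) and refed against fasted 2.08 (1.55 to 2.65). An exon of Cxcl10 overlaps one of Art3 on the opposite strand, and the labels do not say whether the counting used strand. Art3 had 46, 148 and 175 counts in the ad libitum, fasted and refed libraries. If strand was not used, reads from the shared stretch cannot be told apart between Cxcl10 and Art3. Cxcl11, the third Cxcr3 ligand of this kind, was not analysed here.

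Cxcl13 (RefSeq NM_018866, chromosome 5, 95956951 to 95961068, plus strand) had 446 counts in the ad libitum, 296 in the fasted and 57 in the refed library. The DD libraries had 155, 28, 44, 36, 79 and 31 counts from CT1 to CT21. The ad libitum and fasted libraries (8.64 and 6.79 CPM) stood above all 6 DD libraries, and the refed library (1.19 CPM) lay within their range. Fasting was accompanied by a log2 ratio of -0.35 (-0.56 to -0.13), and the lower level appeared in the refed library, at -2.86 against ad libitum (-3.29 to -2.46) and -2.52 against fasted (-2.95 to -2.10). For Cxcl13 the refed library, and not the fasted one, was therefore past 2-fold below ad libitum. Marco, a scavenger receptor of macrophages, had 1506, 1011 and 205 counts in the same order of libraries. It was the only one of 7 Kupffer cell and macrophage markers past 2-fold in the refed against the ad libitum library. That count is near the share of lower genes over all genes (7.82%).

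Cxcl14 (RefSeq NM_019568, chromosome 13, 56288643 to 56296551, minus strand) had 964 counts in the ad libitum, 38 in the fasted and 143 in the refed library. The DD libraries CT1 and CT17 held 1094 and 704 counts, and CT5, CT9, CT13 and CT21 held 71, 72, 51 and 126. The same 3 libraries as for Cxcl1 were high, at 18.7 CPM (ad libitum), 20.1 CPM (CT1) and 14.2 CPM (CT17), and the other 6 lay between 0.872 and 2.98 CPM without overlap with them. The intervals of CT1 and ad libitum overlapped. The log2 ratio was -4.42 after fasting (-4.93 to -3.95), -2.65 in the refed against the ad libitum library (-2.91 to -2.39) and 1.77 in the refed against the fasted library (1.25 to 2.33).

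Cxcl12 and Cxcl16 moved least. Cxcl12 (RefSeq NM_001012477, chromosome 6, 117168577 to 117181367, plus strand) had 9917, 8709 and 6909 counts in the ad libitum, fasted and refed libraries, and 10716 to 12787 counts in DD. The refed library was the lowest of the 9 at 144 CPM, and CT9 the highest at 276 CPM. Its log2 ratio was 0.06 after fasting (0.02 to 0.10), -0.42 in the refed against the ad libitum library (-0.46 to -0.37) and -0.48 in the refed against the fasted library (-0.52 to -0.43). The fasted ratio had an interval that included 0 with halved counts (-0.002 to 0.116), and its direction turned without scaling, to -0.19. Cxcl16 (RefSeq NM_023158, chromosome 11, 70453983 to 70459984, minus strand, 5 exons) had 467, 497 and 532 counts in the feeding libraries and 345 to 700 in DD, and CT17, the highest library, had an interval (13.1 to 15.2 CPM) that did not overlap that of the next, the fasted library (10.4 to 12.5 CPM), although they overlapped with halved counts. Below these, intervals of all neighbours in its order of levels overlapped. Its log2 ratio was 0.34 after fasting (0.15 to 0.52) and 0.29 after refeeding (0.11 to 0.48). Zmynd15, which overlaps an exon of Cxcl16 on the opposite strand, had 115 to 230 counts.

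Counted over the 9 members with at least 10 counts in the higher library, 1 was at least 2-fold higher and 4 were at least 2-fold lower in the fasted than in the ad libitum library, where 11.1% and 9.47% of 14412 genes were. In the refed against the ad libitum library, 2 members were higher and 4 lower, against 7.71% and 7.82% of 14026 genes. In the refed against the fasted library, 5 were higher and 2 lower, against 6.21% and 8.39% of 14321 genes. The median log2 ratio of the members was -0.35, -0.42 and 1.05 in these comparisons, and that of all genes -0.05, -0.03 and 0.04. The 3 comparisons share libraries, so they are not independent of each other. Scaling by total counts moved the median of all genes to 0.13 for fasted and 0.18 for refed against ad libitum, and the share of higher genes among those past 2-fold from 54.0% to 66.1% and from 49.7% to 66.4%. Without scaling these shares were 36.5% and 41.2%, and for refed against fasted 54.2% instead of 42.5%. No member past 2-fold turned its direction under these scalings.

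**Figure D2:**
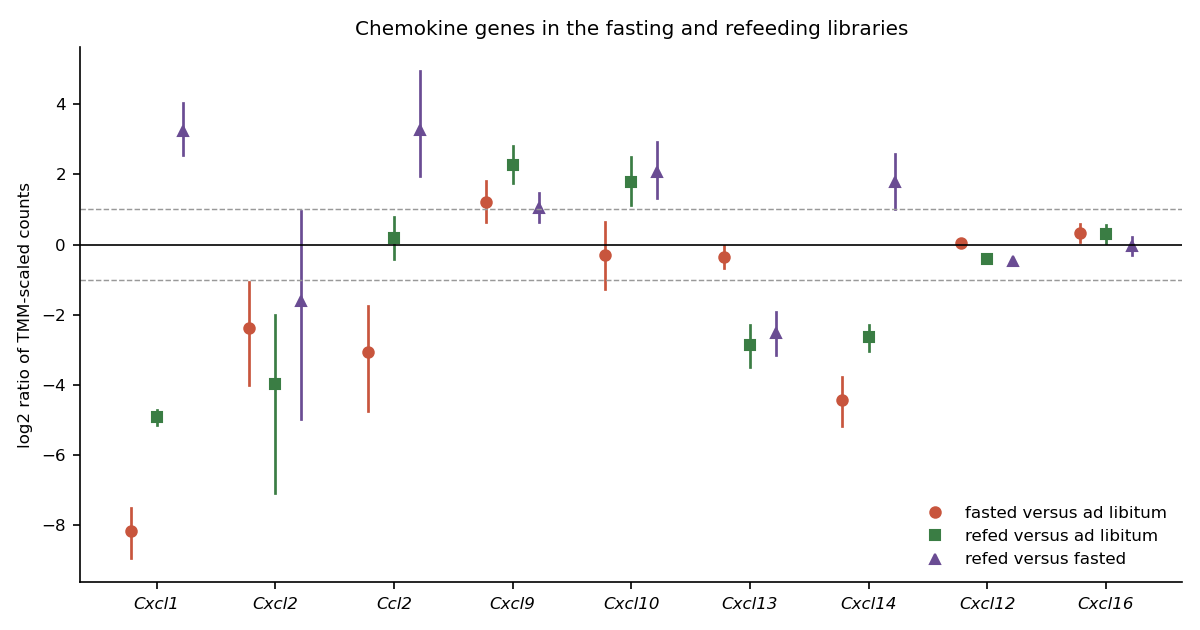
Log2 ratio of TMM-scaled counts for 9 chemokine genes in fasted versus ad libitum (circles), refed versus ad libitum (squares) and refed versus fasted (triangles) liver, 1 library each. Bars are exact 95% counting intervals from halved counts and dashed lines mark 2-fold. Cxcl1 reaches -8.17 after fasting, Ccl2 is at 0.19 in refed against ad libitum, and Cxcl9 is above 0 in all 3 comparisons.

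In constant darkness, the highest of the 6 libraries was compared with the lowest for each gene. This ratio is above 0 by construction, and its median over 14570 genes was 0.71 on the log2 scale. It was at least 2, or 4-fold, in 5 of the 9 members and in 10.5% of all genes. Cxcl1 had a ratio of 5.29 (interval 5.01 to 5.58, CT17 over CT5) and Cxcl14 4.25 (3.85 to 4.69, CT1 over CT13). Ccl2 had 2.60 (1.46 to 3.98, CT21 over CT9), Cxcl13 2.52 (1.95 to 3.12, CT1 over CT21) and Cxcl10 2.28 (1.77 to 2.82, CT21 over CT1). The ratio was 1.17 for Cxcl9 (CT5 over CT9), 0.92 for Cxcl16 (CT17 over CT9) and 0.55 for Cxcl12 (CT9 over CT21), and Cxcl2 rested on 10 against 2 counts. Cxcl10 was therefore lowest in a library in which Cxcl1, Cxcl13 and Cxcl14 were high.

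The large ratios of Cxcl1, Cxcl13 and Cxcl14 came from CT1 and CT17, the DD libraries with high acute phase genes and neutrophil markers. Of the 1536 genes past 4-fold, 30.5% had their peak at CT1 and 28.2% at CT17. Without these 2 libraries the ratio was 1.86 for Cxcl1, 0.94 for Cxcl14, 0.93 for Cxcl13, 1.39 for Cxcl10 and 0.32 for Cxcl16, and Ccl2 kept 2.60. The count of members past 4-fold was then 1 instead of 5, and it was 3 without CT1 alone. For any gene this ratio cannot rise when libraries are left out. The share over all genes was not computed for fewer libraries, so the lower counts are not particular to the members. Single libraries also decided the other calls, as the ratio of Ccl2 was 1.59 without CT9, where it had 7 counts, and that of Cxcl10 was 1.43 without CT21. CT1 and CT17 are not neighbours in time, and CT21 between them had 196 counts of Cxcl1 and 126 of Cxcl14.

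**Figure D3:**
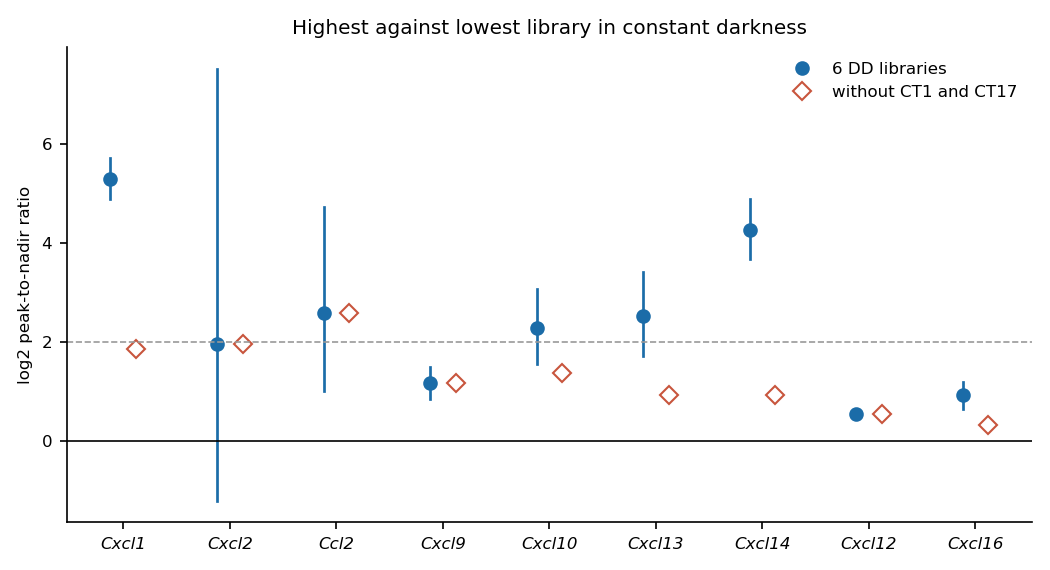
Log2 ratio of the highest to the lowest DD library for each chemokine gene, with all 6 libraries (filled circles, bars are exact 95% counting intervals from halved counts) and without CT1 and CT17 (open diamonds). The dashed line marks 4-fold. Cxcl1 goes from 5.29 to 1.86 and Cxcl14 from 4.25 to 0.94, and Ccl2 stays at 2.60.

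For a 24-h rhythm, a cosine was fitted over the 6 DD libraries in edgeR (quasi-likelihood F test), adjusted by Benjamini-Hochberg over 14021 genes. No gene passed an adjusted p of 0.05 (0.0% of genes), with 1286 genes at an unadjusted p under 0.05, while DESeq2 called 377 genes and limma 0. Of the members, 8 could be tested and Cxcl2 was too low. Ccl2 had the smallest p of the members (adjusted p = 0.39 in edgeR's quasi-likelihood F test), with a log2 amplitude of 1.22 and a fitted peak at 20.5 h. Its adjusted p was 0.057 with DESeq2, the lowest over its alternatives, which reached 0.999. Cxcl1 and Cxcl14 had larger amplitudes, 2.06 and 2.09, with edgeR adjusted p of 0.68 and 0.61, and both were high at CT1 and CT17 and low between them at CT21. The amplitudes of the other 5 tested members were between 0.14 and 0.60 (edgeR adjusted p from 0.62 to 0.84). These values do not show that the chemokine genes lack a rhythm.

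Set beside the range of the 6 DD libraries, the ad libitum library lay outside for 5 members, above it for Cxcl1, Cxcl2, Cxcl13 and Ccl2 and below it for Cxcl9, where 41.7% of genes lay outside. The fasted library lay outside for 5 members, above for Cxcl2 and Cxcl13 and below for Cxcl1, Cxcl9 and Cxcl14 (background 49.4%). The refed library lay outside for 3 members, above for Cxcl10 and Ccl2 and below for Cxcl12 (background 41.8%). Against the DD median, Cxcl1 was at 5.48 on the log2 scale in the ad libitum and at -2.69 in the fasted library. Cxcl9, lowest in the ad libitum library, was there at -2.37. Light schedule and feeding experiment cannot be told apart in this comparison.

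Across the 9 libraries, and among the 8 members with at least 100 counts in a library (all but Cxcl2), Cxcl1 and Cxcl14 had the most similar profiles (Pearson r = 0.96 of log2 CPM, n = 9), and Cxcl9 and Cxcl13 the most opposed ones (r = -0.83). These correlations are descriptions over libraries that include the 3 with high acute phase genes. Of 11646 genes with at least 100 counts in a library, those most like Cxcl1 were Slc3a1 (0.994), Sebox (0.991) and Prepl (0.990), and those most like Cxcl14 were Atp11a (0.986), Fga (0.981), which encodes a fibrinogen chain, and Tpd52 (0.979). The nearest genes to Ccl2 were Sec11a (0.974), Srp54a (0.968) and Ghdc (0.962), of which the first and second act in protein entry into the secretory pathway. Rarres1, Itih5 and Slc39a4 were nearest to Cxcl9 (0.936 to 0.947), Wdr18, Tusc3 and Cldn12 to Cxcl10 (0.941 to 0.976), and Plppr1, Dop1a and Pgm3 to Cxcl13 (0.954 each). Slc30a1, Adamtsl4 and Grina were nearest to Cxcl12 (0.918 to 0.942), and Klhl6, Hfe and Siglech to Cxcl16 (0.935 to 0.945).

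**Figure D4:**
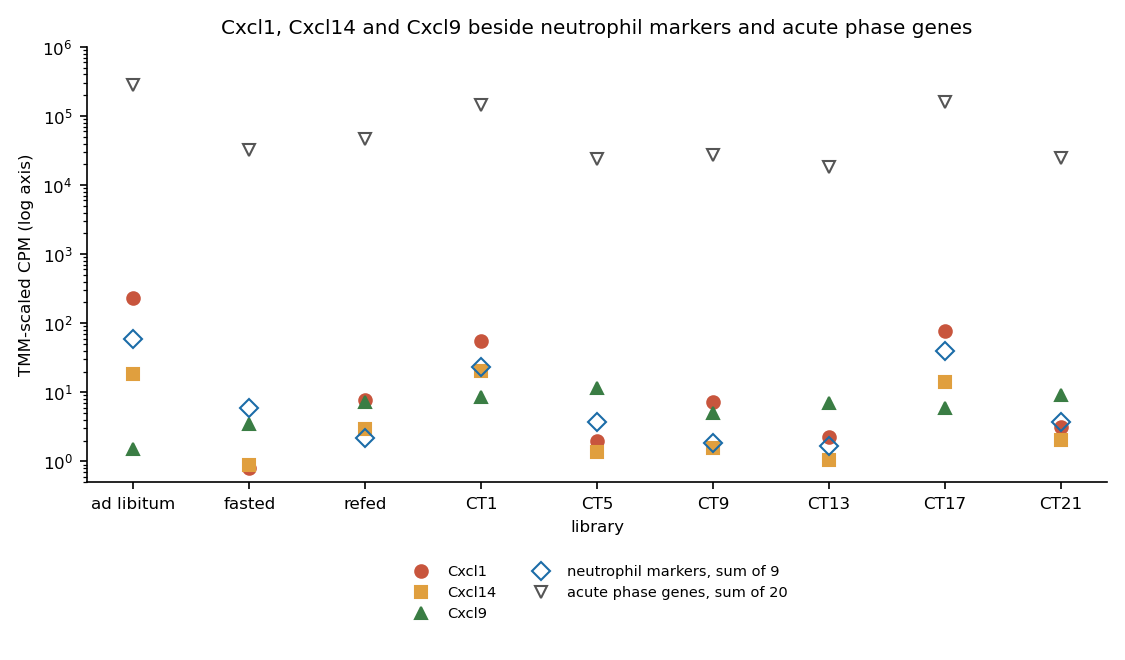
Level of Cxcl1, Cxcl14 and Cxcl9 (filled symbols) and summed level of 9 neutrophil markers and 20 acute phase genes (open symbols) in each of the 9 libraries, as TMM-scaled CPM on a log axis. Cxcl1, Cxcl14 and both sums are high in the ad libitum, CT1 and CT17 libraries, and Cxcl9 is lowest in the ad libitum library.

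Genes of inflammation, markers of neutrophils and genes of chemokine signalling were read as whole lists. Over all genes tested, 11.1% were at least 2-fold higher and 9.47% lower after fasting, 7.71% and 7.82% after refeeding, and 10.5% passed 4-fold in DD, and each list count below is to be read against these shares. All 20 acute phase genes were past 2-fold below ad libitum in both the fasted and the refed library, and 19 passed 4-fold in DD. Of 9 neutrophil markers, 9 were lower in both comparisons and 9 passed 4-fold in DD. The part of these cells and of the inflammatory state in the level of Cxcl1 and Cxcl14 was not tested. Of 12 genes of the NF-κB response, 7 were lower after fasting and 7 after refeeding (median -1.39 and -1.35), and 0 passed 4-fold in DD. Among them, Tnfaip3, an inhibitor of NF-κB signalling, was at -3.12 and -2.88, Bcl3 at -2.45 and -2.02, Nfkbiz at -2.23 and -1.80, and Icam1, an adhesion molecule for leukocytes, at -2.11 and -2.18. Tnfaip3 had 1633 counts with ad libitum feeding and between 134 and 304 elsewhere, so that, unlike Cxcl1, it was not high at CT1 and CT17. The other named genes differed in this. Icam1 was at 28.5 and 26.7 CPM at CT1 and CT17, and at 11.1 to 14.7 CPM in the other DD libraries. Nfkbiz was at 12.3 and 17.4 CPM at CT1 and CT17, and at 6.68 to 11.2 CPM in the others. Bcl3 was highest in DD at CT9 (9.28 CPM).

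Of 12 tested genes of IL-1, IL-6 and TNF signalling, 7 were lower after fasting, 7 lower and 1 higher after refeeding, and 4 passed 4-fold in DD. Socs3, a feedback inhibitor induced by STAT3, followed the Cxcl1 pattern, with 111 CPM in the ad libitum, 52.3 in CT1 and 61.8 in CT17 and 3.63 to 14.7 CPM in the other 6 libraries. Il1r1, the IL-1 receptor, was at 339 CPM with ad libitum feeding and between 24.2 and 120 CPM elsewhere. Of 15 interferon response genes, 4 were higher and 2 lower after fasting, and 5 higher and 1 lower after refeeding (median 0.17 and 0.59), where the lower counts were near the share over all genes. Ifit3 was at 1.83 and 2.35 and Ifit1 at 1.78 and 1.99, with the lowest counts of each in the ad libitum library, as for Cxcl9. Irf1, a transcription factor induced by interferon, was at -1.58 after fasting and 0.00 after refeeding, and Stat2 at -1.67 and -1.04.

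Among the CC ligands other than Ccl2, 8 were tested after fasting, of which 1 was higher and 1 lower, and 8 after refeeding, with 1 higher and 2 lower. The counts after fasting were near the shares over all genes (11.1% higher and 9.47% lower). In DD, 6 of 11 tested CC ligands, Ccl2 among them, passed 4-fold, against 10.5% of all genes. Only Ccl6 of these had at least 100 counts in a DD library. Ccl6 had 1466, 668 and 563 counts in the feeding libraries and was highest in DD at CT17 (1698 counts) and CT1 (1585). Ccl9 had 3334, 1647 and 3656 counts, lowest in the fasted library as among the feeding libraries of Ccl2, with a log2 ratio of 1.01 in refed against fasted. Ccl24 and Ccl25 stayed within 2-fold of ad libitum in both feeding libraries. Of the atypical receptors, which take up chemokines without classical signalling, 2 of 5 were higher after fasting. Ackr2, a scavenger of CC chemokines including Ccl2, had 168, 355 and 169 counts in the ad libitum, fasted and refed libraries, a log2 ratio of 1.32 after fasting. Ackr4 had 271, 635 and 352 counts (1.47 after fasting), and Ackr3, the scavenger of Cxcl12, had 28, 27 and 58 counts (1.16 in refed against ad libitum). Dpp4, the protease that clips the N-terminus of Cxcl9, Cxcl10 and Cxcl12, had 4680, 7541 and 9957 counts in this order, with log2 ratios to ad libitum of 0.93 and 1.19.

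Cxcr6, the receptor of Cxcl16, had 55 to 130 counts in the 9 libraries and stayed within 0.13 of ad libitum on the log2 scale in the fasted and refed libraries. Cx3cr1 was highest in DD at CT1, with 153 counts. Of 10 tested receptors of the CC, C and CX3C families, 2 were higher and 1 lower after fasting. Of 6 CXC receptors, 2 were higher and 1 lower, and over all genes 11.1% were higher and 9.47% lower. In DD, 7 of 11 tested CC, C and CX3C receptors, 3 of 6 CXC receptors and 0 of 5 atypical receptors passed 4-fold, against 10.5% of all genes. Most of the receptors past 4-fold had fewer than 100 counts in every DD library.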

How the data were processed

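Livers were pooled by condition, and the polyA+ RNA of each pool was sequenced as 1 library. Reads were mapped by the authors to GRCm38, with TopHat2 2.0.13 named in the submitters' notes. The authors deposited whole-number counts for 27457 RefSeq mRNA rows per library. The counting program and strand setting were not given in the sources used here. Rows at 2 counts outnumbered rows at 1 count in 9 of 9 libraries, so both mates of a pair may have been counted. Intervals were therefore also computed from halved counts (chosen after seeing the data), which widened them 1.44-fold at the median.

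Rows were named from the RefSeq table of GRCm38.p6 (26386) or GENCODE M21 (119). The 952 unnamed rows, 0.346% to 0.817% of the counts, were left out. The highest-total row per gene was kept. Gene coordinates are those of the matching GENCODE M21 transcripts (GRCm38). Promoter distances are counted from the RefSeq promoter starts, which differ from these coordinates for some members. Counts were scaled by TMM (edgeR 4.0.16, R 4.3.3). Ratios required 10 counts in the higher library and carry exact 95% intervals (Clopper-Pearson for ratios, Poisson for levels). Rhythm in DD was tested by fitting a 24-h cosine with edgeR (quasi-likelihood F test), with DESeq2 1.42.0 and limma 3.58.1 as alternatives, and checked on simulated data. Python 3.11.15, pandas 2.3.3, scipy 1.17.1 and matplotlib 3.10.9 were used.

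The members, gene lists and comparisons were chosen with earlier results of these data known. Genes named beside the members were chemokine ligands and receptors with at least 100 counts in a library, up to 4 leading genes of each other list by log2 ratio, and the 3 genes most like each member with at least 100 counts, by Pearson r of log2(CPM + 0.1). Cxcr2, Ppbp, Art3, Zmynd15 and Marco and the markers at 0 counts were named after their values were seen, because a value beside them needed it. Not every gene taken by this rule is reported.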

Additional observations from a re-analysis of the deposited data

How the results depend on the processing

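The counts of members past 2-fold changed in 5 places. Without scaling, 0 instead of 1 member was higher after fasting. With DESeq2 size factors, 4 instead of 5 were higher in the refed against the fasted library. With a minimum of 100 counts, 2 instead of 4 members were lower after fasting, 3 instead of 4 were lower after refeeding and 1 instead of 2 were lower in the refed against the fasted library, by construction, because fewer members were tested. In DD, the members past 4-fold were 6 with total-count scaling or none and 4 with a minimum of 100 counts. They were 3 to 5 when 1 library was left out, and 1 without CT1 and CT17, an alternative chosen after seeing the data. The share over all genes was not computed with libraries left out. The genes called rhythmic in DD were 0 with edgeR's quasi-likelihood test, 377 with DESeq2 and 0 to 32 when 1 library was left out (1 without CT1 and 32 without CT21). The cause was not tested. No member passed an adjusted p of 0.05 under the alternatives run, and no member past a threshold turned its direction. No paired analysis was possible because each condition had 1 library. Depth limits Cxcl2, and Ccl2 and Cxcl10 in their low libraries. The feeding ratios have no replicate check.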

Other observations

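Cxcl12 had 3 RefSeq rows, of 5627, 3132 and 1878 bases, whose counts may share reads. The middle row had 0.866 to 0.934 counts per count of the longest row in all 9 libraries. The shortest row, which ends in a different last exon, had 0.414 to 0.552 counts per count of the longest row in 8 libraries and 0.654 at CT13 (7213 against 11029 counts). The kept row alone does not show this difference, and no replicate bears on it.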
